A study of Mus musculus with 4 samples.

Results

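Expression of 8 chemokine receptor genes was examined in mouse mesenchymal cells of the hair follicle, the dermal papilla cells (DPCs) and sheath cells (DSCs), in culture. The genes were chosen by symbol from 51826 genes of a count table, with earlier results of these libraries known. They were the atypical receptors *Ackr2*, *Ackr3* and *Ackr4*, the atypical-like *Ccrl2*, and the conventional receptors *Cxcr4*, *Cxcr6*, *Ccr1* and *Ccr10*. All 8 had more than 3 counts in at least 1 library, but detection did not set them apart, because 8 of 17 other receptor genes also did. Their levels are therefore described without a test.

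DPCs form the cluster of mesenchymal cells at the base of the hair follicle, and DSCs line the follicle from outside. The cells were labelled WT, and the study's methods describe vibrissa (whisker) follicles of young EGFP-transgenic mice as their source. Low-passage cells were at passage 3 and high-passage cells at passage 9, all grown in DMEM medium, and each combination was sequenced as 1 library. How many mice or cultures went into a library was not given in the sources used here, and cells of high passage cannot be told apart from libraries made on another occasion.

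The 4 libraries held 34981284 to 47604059 counts, and CPM values scale them by library size. A count of 0 allowed a level of up to 0.0658 to 0.0836 CPM, depending on the library. Intervals in brackets are 95% intervals of the counts of the compared libraries. Folds are ratios of CPM, whereas log2 differences were computed with a prior count of 2 added, which draws those of low counts towards 0, so that the log2 of a fold can be larger than the log2 difference beside it. The intervals belong to the ratio without the prior count. They cover counting error only and say nothing of the spread between cultures. An excess of even counts was present in all 4 libraries, and if both mates of each read pair were counted the number of independent observations is lower. Of 32 member comparisons, 18 intervals excluded 0 on the log2 scale, and 13 still did with halved counts. The 18 include those of *Ackr2* at 6 counts against 0, a gene below the count filter. The share of all genes with such intervals was not counted, so these numbers describe the members only. The labelled markers were uneven. *Acta2* had 67135 to 262118 counts, *Ncam1* had 1673 to 15584 and *Sox2* had 178 to 1677, whereas *Alpl* had 6 to 23, *Lepr* was at 0 in high-passage DSCs, and *Lef1* had 2 counts in high-passage DPCs against 508 at low passage. The keratinocyte markers *Krt5*, *Krt14*, *Krt15* and *Cdh1* were at 0 in all 4 libraries, while *Trp63* had 10 to 35 counts and *Epcam* had 4 in high-passage DPCs and 0 in the others.

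Chemokines are small secreted proteins that guide cell migration. Conventional receptors couple to G proteins and translate a chemokine gradient into directed movement. Atypical receptors bind chemokines without classical G protein signalling and mostly internalise or scavenge them, which shapes the gradient that conventional receptors read. In skin, such receptors act on leukocytes, vessels and stromal cells.

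The receptor mRNA of the high-passage libraries was made up mostly of *Ackr3* and *Ackr4*. In FPKM, which scales fragments by transcript length and library size, the summed level of the 8 genes was 2.99 in low-passage DPCs and 9.41 in high-passage DPCs. In DSCs it was 4.10 at low and 7.50 at high passage. The 4 atypical and atypical-like genes accounted for the higher sums, with 1.47 and 7.84 FPKM in low- and high-passage DPCs and 3.12 and 6.97 FPKM in DSCs. The conventional genes together stood at 1.52 and 1.58 FPKM in DPCs, and at 0.980 and 0.521 FPKM in DSCs. Their share of the summed level was 50.7% in low-passage DPCs and 16.7% in high-passage DPCs, and it was 23.9% and 6.95% in DSCs. All of these levels were modest. In high-passage DPCs, *Ackr3* lay at percentile 65.2 of the genes with an FPKM value above 0, and *Ackr4* in high-passage DSCs at percentile 61.0.

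**Figure D1:**
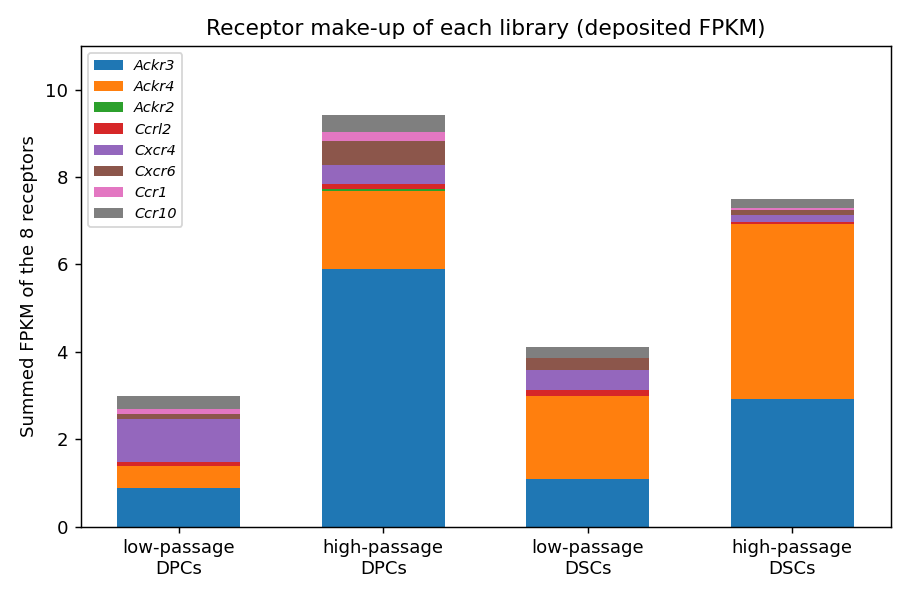
Deposited FPKM of the receptor genes stacked for each of the 4 libraries (bars start at 0, 1 library per bar). The sum is 2.99 in low-passage and 9.41 in high-passage DPCs, 4.10 and 7.50 in DSCs, and Ackr3 with Ackr4 makes up 46.4%, 81.6%, 72.6% and 92.3% of it in this order.

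The order of the genes differed between libraries. In low-passage DPCs, *Cxcr4* (0.981 FPKM) and *Ackr3* (0.872 FPKM) were highest and close to each other, and by CPM per exonic length their order turned, with *Ackr3* at 1.06 times *Cxcr4*. In high-passage DPCs *Ackr3* led with 5.90 FPKM, followed by *Ackr4* with 1.78 FPKM, and *Cxcr6* (0.545 FPKM) stood slightly above *Cxcr4* (0.440 FPKM). In DSCs *Ackr4* led at both passages, with 1.88 and 4.01 FPKM against 1.09 and 2.91 FPKM for *Ackr3*. The order of this pair in DSCs depended on the length used. With CPM divided by the annotated exonic length, 5380 bases for *Ackr4* and 3348 for *Ackr3*, the *Ackr4* level was 0.886 and 0.642 times that of *Ackr3* in low- and high-passage DSCs. By FPKM it was 1.72 and 1.38 times as high. *Ccrl2* and *Ackr2* were at the bottom of the order in 3 libraries, with at most 0.145 and 0.0447 FPKM in any library. In low-passage DSCs *Ccr1* and *Ackr2* were both listed at 0, below *Ccrl2*.

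*Ackr3* (ENSMUSG00000044337, CXCR7) lies on chromosome 1 at 90203980 to 90216751 on the plus strand of genome build GRCm38. Its protein binds CXCL12 and scavenges it, and *Cxcr4* (ENSMUSG00000045382, chromosome 1 at 128588199 to 128592293, minus strand) encodes the conventional receptor for the same ligand. Their promoters are shown because this pair of CXCL12 receptors had passage differences of opposite sign. The 250 bases before the RefSeq start (GRCm38.p6, chr1:90203730-90203979, plus strand, and chr1:128592300-128592549, minus strand) are given 5′ to 3′, with motif matches in capitals.
Ackr3: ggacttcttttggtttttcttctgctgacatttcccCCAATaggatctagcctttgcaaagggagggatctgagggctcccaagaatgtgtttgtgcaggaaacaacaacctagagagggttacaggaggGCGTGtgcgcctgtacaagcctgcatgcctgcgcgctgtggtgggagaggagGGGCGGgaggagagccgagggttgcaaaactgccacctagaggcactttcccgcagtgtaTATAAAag
Cxcr4: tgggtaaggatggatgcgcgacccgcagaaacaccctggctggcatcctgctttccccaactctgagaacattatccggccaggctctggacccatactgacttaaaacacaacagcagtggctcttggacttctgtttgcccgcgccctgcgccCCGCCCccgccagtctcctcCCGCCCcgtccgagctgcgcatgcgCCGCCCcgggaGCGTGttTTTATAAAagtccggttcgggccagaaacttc

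Motifs of 8 kinds were searched on both strands. The TATA box was searched as TATAAA and the GC box as GGGCGG, beside the box named CCAAT. The E-box was searched as CACGTG and the site of AP-1 as TGANTCA. Hypoxia response cores were searched as ACGTG, which the E-box contains, and as the variant GCGTG. The site of STAT factors was searched as TTCNNNGAA. Both promoters held TATAAA, which was present in 12.4% of 32851 promoters of this length. Its match began 8 bases before the annotated start in *Ackr3* and 30 bases before it in *Cxcr4*, where a match on the other strand overlapped it. Both also held GGGCGG, present in 32.7% of promoters, with 1 match in *Ackr3* and 3 in *Cxcr4*, and GCGTG, present in 28.2%. *Ackr3* alone of this pair held CCAAT, present in 33.8%. Of the 7 members matched to RefSeq promoters, none held the E-box, AP-1 or STAT letters in these bases. The GC content was 54% for *Ackr3* and 61.2% for *Cxcr4*, beside a median of 52.4% for all promoters. A match of letters is not a binding site.

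*Ackr3* was higher at high passage in both cell types. It had 100 and 623 counts in DPCs at passages 3 and 9, and 130 and 445 counts in DSCs. The low-passage libraries were close to each other, and each high-passage library lay well above both. The level in CPM was 6.39-fold higher (5.17 to 7.97) with passage in DPCs, and 2.85-fold higher in DSCs. The log2 differences were 2.65 (2.37 to 2.99) and 1.50 (1.23 to 1.80). The log2 difference was larger in DPCs than in DSCs by 1.16 (0.74 to 1.60). At low passage the cell types differed by −0.33 (−0.73 to 0.05, DPCs over DSCs), and at high passage DPCs were 1.78-fold higher, a log2 difference of 0.83 (0.65 to 1.01).

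*Cxcr4* was lower at high passage, with the clearer difference in DSCs. Its counts were 51 and 32 in low- and high-passage DPCs and 37 and 16 in DSCs. The level in high-passage DSCs was 2.78-fold lower than at low passage by the ratio of CPM, and the log2 difference with the prior count was −1.35 (−2.42 to −0.59). In DPCs the log2 difference was −0.61 and its interval reached 0 (−1.32 to 0.03). The passage differences of DPCs and DSCs differed by 0.74 (−0.30 to 2.01), an interval that includes 0. DPCs had more *Cxcr4* than DSCs at high passage, by 2.54-fold (log2 1.23, 0.44 to 2.31), and at low passage the log2 difference was 0.48 (−0.13 to 1.16).

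The ratio of *Ackr3* to *Cxcr4* within a library does not depend on how libraries are scaled. There were 1.96 counts of *Ackr3* for each count of *Cxcr4* in low-passage DPCs and 19.5 in high-passage DPCs. In DSCs the ratio was 3.51 at low and 27.8 at high passage. On the log2 scale the passage difference of this ratio was 3.31 (2.56 to 4.07) for DPCs, and for DSCs it was 2.98 (2.04 to 3.97). Per length, *Ackr3* stood at 0.889 times *Cxcr4* by FPKM in low-passage DPCs (1.06 times by CPM per exonic length) and at 13.4 times in high-passage DPCs. In DSCs it stood at 2.34 and 18.4 times. *Cxcr4* is also common on leukocytes. Of 12 leukocyte markers, 10 had more than 3 counts in some library. The median log2 passage difference of these 10 was −1.79 in DPCs and −1.23 in DSCs. The summed level of the list, which *Lyz2* weighs on most, was 152 and 90.1 CPM in low- and high-passage DPCs and 195 and 112 CPM in DSCs. *Ptprc* (CD45), carried by nearly all leukocytes, had 70, 22, 116 and 18 counts in the same order, and *Cd3e* was at 0 in all 4 libraries. The summed endothelial markers were at 2.53, 0.111, 5.64 and 1.08 CPM. Schwann cell markers were at 11.2, 3.65, 28.0 and 5.09 CPM in sum, with *Sox10* at 28 and 116 counts in low-passage DPCs and DSCs and *Ngfr* at 144 and 544, and both at 0 in the high-passage libraries. The part of these cells in the receptor values was not tested, and in bulk cultures fewer cells of a type and less RNA per cell cannot be told apart.

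**Figure D2:**
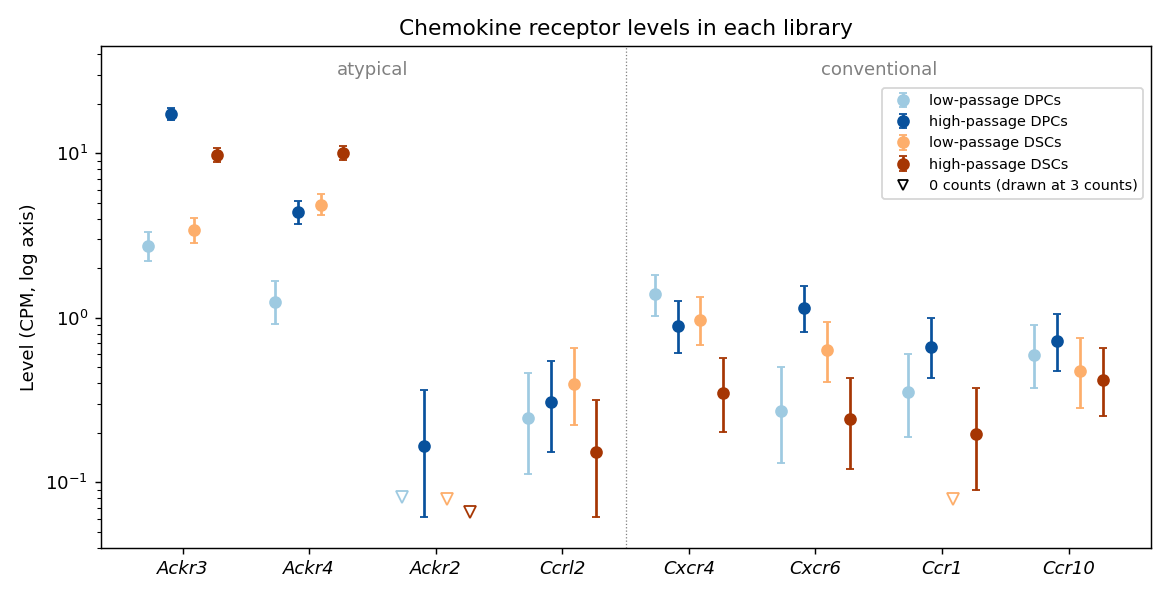
CPM of each receptor gene (log axis) in the 4 libraries, with bars for the 95% Poisson interval of the count (counting error only) and open downward triangles for a count of 0, drawn at the level of 3 counts. Ackr3 reaches 17.4 CPM in high-passage DPCs from 2.72 at low passage, whereas Cxcr4 is lower at high passage in both cell types and Ccr10 shows overlapping intervals.

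*Ackr4* (ENSMUSG00000079355, chromosome 9 at 104084157 to 104126933, minus strand) encodes the scavenger of CCL19, CCL21 and CCL25. Its counts were 46 and 158 in DPCs at passages 3 and 9, and 185 and 459 in DSCs. Levels were higher at high passage in both cell types and higher in DSCs than in DPCs at both passages, so that high-passage DPCs and low-passage DSCs were near each other at 4.40 and 4.88 CPM. The passage difference was 3.52-fold in DPCs (log2 1.78, 1.33 to 2.32) and 2.06-fold in DSCs (log2 1.04, 0.80 to 1.30). DPCs were 3.90-fold lower than DSCs at low passage and 2.29-fold lower at high passage, with log2 differences of −1.92 (−2.46 to −1.49) and −1.18 (−1.46 to −0.93). The passage difference was larger in DPCs by 0.74 (0.22 to 1.34) on the log2 scale.

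*Ackr3* and *Ackr4* thus shared the direction of the passage difference and differed in the contrast of cell types. At a 2-fold threshold, 4.86% of 16734 tested genes were higher with passage in both cell types, and 3.54% were lower in both. The pair was among the former by what was known when the genes were chosen. Their profiles over the 4 libraries were 1.93 apart (Euclidean distance of centred log2 CPM), and 3945 of 13389 genes with a mean count of at least 50 lay nearer to *Ackr3* than *Ackr4* did. The nearest gene to *Ackr3* was *Zfp940*, at a distance of 0.145, with 62 and 379 counts in low- and high-passage DPCs and 71 and 253 in DSCs. *Gm45495* followed at 0.165 with 27, 179, 32 and 132 counts. For *Ackr4* the nearest genes were *Best1*, a chloride channel gene, at 0.181 and the interferon-induced *Usp18* at 0.216. *Usp18* had 146 and 442 counts in low- and high-passage DPCs and 466 and 1251 in DSCs. Within a distance of 0.5 lay 32 genes for *Ackr3* and 18 for *Ackr4*.

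The exons of *Ackr4* overlap those of *Acad11*, an acyl-CoA dehydrogenase gene on the opposite strand, over 479 bases or 8.90% of its exonic length. Use of strand in the counting was not given in the sources used here, so reads of the shared bases cannot be assigned. *Acad11* had 1131 and 1006 counts in low- and high-passage DPCs and 866 and 1360 in DSCs, with log2 differences of −0.13 and 0.39. Relative to *Acad11* within each library, the log2 passage difference of *Ackr4* was 1.95 (1.45 to 2.47) for DPCs, and for DSCs it was 0.66 (0.38 to 0.94).

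*Ackr2* (ENSMUSG00000044534, chromosome 9 at 121898355 to 121911074, plus strand), which encodes a scavenger of inflammatory CC chemokines, was nearly silent in these counts. It had 6 counts in high-passage DPCs and 0 in the other libraries, and with a mean count under 10 it was not among the genes tested. High-passage DPCs were set against the 3 counts that a 0 allows. Their level was 2.05-fold above low-passage DPCs and 2.54-fold above high-passage DSCs. The intervals began at 1.21-fold and 1.50-fold, and neither excluded 0 on the log2 scale with halved counts. *Ccrl2* (ENSMUSG00000043953, chromosome 9 at 111054486 to 111057519, minus strand) presents chemerin to neighbouring cells. Its counts of 9 and 11 in DPCs and of 15 and 7 in DSCs (low, then high passage) gave no interval that excluded 0. The most distant was the passage difference in DSCs, at −1.13 (−2.90 to 0.02) on the log2 scale.

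*Cxcr6* had opposite passage differences in the 2 cell types. The gene (ENSMUSG00000048521, chromosome 9 at 123806475 to 123811760, plus strand) encodes the receptor of CXCL16. It had 10 and 41 counts in DPCs at passages 3 and 9, and 24 and 11 counts in DSCs. High-passage DPCs stood above the other libraries at 1.14 CPM, and the others lay between 0.241 and 0.633 CPM. By the ratio of CPM, the level was 4.20-fold higher with passage in DPCs and 2.62-fold lower in DSCs. The log2 differences with the prior count were 1.89 (1.05 to 3.23) and −1.23 (−2.57 to −0.31), the latter with an interval that included 0 with halved counts. At high passage DPCs were 4.73-fold above DSCs (log2 2.03, 1.26 to 3.35), and at low passage the log2 difference was −1.08 (−2.45 to −0.10), again with 0 inside the interval of halved counts.

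*Cxcr6* lies within *Fyco1*, an autophagosome transport gene on the opposite strand, and shares no exonic base with it. *Fyco1* had 1300 and 5689 counts in low- and high-passage DPCs and 2705 and 3947 in DSCs, many times the counts of *Cxcr6*. In DPCs both genes were higher at high passage, *Fyco1* by 2.16 on the log2 scale. The ratio of *Cxcr6* to *Fyco1* in DPCs was 0.00769 at low and 0.00721 at high passage, a log2 difference of −0.09 (−1.12 to 1.07). In DSCs the log2 difference of the ratio was −1.67 (−2.85 to −0.58), with *Fyco1* itself at 0.28. Between cell types, too, the signs were shared, with *Fyco1* at −1.01 at low and 0.87 at high passage (log2, DPCs over DSCs). Whether intronic or unspliced *Fyco1* reads entered the *Cxcr6* counts was not tested, because the counts carry no strand or position.

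**Figure D3:**
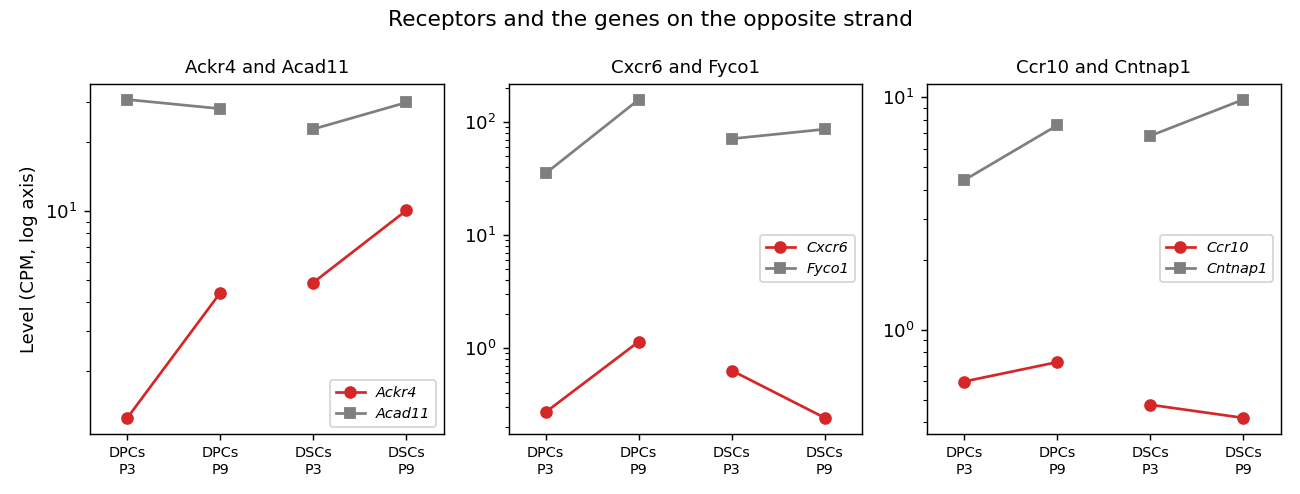
CPM of the receptor genes and of the opposite-strand genes that overlap them, per library (log axis). Fyco1 and Cxcr6 are both higher at high passage in DPCs and part in DSCs. In raw counts, which are not drawn, Acad11 stays between 866 and 1360 while Ackr4 ranges from 46 to 459.

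*Ccr1* (ENSMUSG00000025804, chromosome 9 at 123962124 to 123968692, minus strand) encodes an inflammatory CC chemokine receptor found mostly on myeloid cells and lies 150 kb from *Cxcr6*. Its counts were 13 and 24 in low- and high-passage DPCs and 0 and 9 in DSCs. DPCs were above DSCs at both passages. At low passage the fold was 4.47 against 3 counts, with an interval from 3.14-fold upwards. At high passage it was 3.39-fold (log2 1.53, 0.60 to 3.05). With passage the level was 2.50-fold higher in DSCs against 3 counts, with an interval from 1.64-fold upwards. That interval included 0 on the log2 scale with halved counts, and the log2 difference in DPCs was 0.83 (−0.11 to 2.02). The myeloid marker *Lyz2* had 3396 and 1963 counts in DPCs and 4971 and 3567 in DSCs, higher in DSCs than in DPCs, unlike *Ccr1*. *Itgam*, also myeloid, had 146 and 33 counts in DPCs and 32 and 31 in DSCs, and like *Ccr1* it was higher in DPCs at low passage (log2 2.17). *Laptm5* had 736 and 98 counts in DPCs and 489 and 186 in DSCs, and *Cd14* had 207 and 750 in DPCs and 268 and 550 in DSCs. These markers did not share 1 order of the libraries. Of the 10 leukocyte markers that passed the count filter, 5 were past 4-fold lower with passage in DPCs and 0 higher. In DSCs 1 was lower and 0 higher, where 4.36% of all genes in DPCs and 1.16% in DSCs were lower. The median log2 difference of the 10 was −1.79 in DPCs and −1.23 in DSCs, whereas those of *Cd14* and *Ccr1* were above 0 in both. The part of leukocytes in the *Ccr1* values was not tested.

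*Ccr10* (ENSMUSG00000044052, chromosome 11 at 101172997 to 101175443, minus strand) encodes the receptor of the skin chemokine CCL27 and of CCL28. It was the most even member above the lowest counts, with 22 and 26 counts in low- and high-passage DPCs and 18 and 19 in DSCs. None of its 4 intervals excluded 0, and the log2 passage differences were 0.26 (−0.60 to 1.17) for DPCs and −0.17 (−1.20 to 0.83) for DSCs. It lies within *Cntnap1* on the opposite strand, with no shared exonic base, and that gene had 162, 272, 259 and 446 counts. Differences within these intervals were not detectable at this depth.

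The 7 members with a mean count of at least 10 were set beside all 16734 genes that passed this filter. The threshold was applied to log2 differences with the prior count of 2. With passage in DPCs, *Ackr3* was past 4-fold, as were 9.94% of all genes (5.58% higher, 4.36% lower). *Cxcr6* stood just under the threshold in DPCs at 1.89, although its ratio of CPM was 4.20, and at 2.02 with a prior count of 0.5 it was past it. In DSCs only *Ccr1* was, as were 3.82% of all genes (2.67% higher, 1.16% lower). Between cell types, *Ccr1* at low passage and *Cxcr6* at high passage were past 4-fold, as were 4.3% of all genes at low passage (1.52% higher, 2.77% lower) and 6.42% at high passage (2.5% higher, 3.91% lower). Both calls of *Ccr1* were against a library at 0, so that their fitted size rests on the prior count. At 2-fold, 3 members were higher and 0 lower with passage in DPCs, where 16.1% of all genes were higher and 15% lower. In DSCs 3 were higher and 3 lower, beside 8.55% and 6.21% of all genes. At low passage 1 member was higher in DPCs and 2 lower (5.43% and 7.86% of all genes), and at high passage 3 were higher and 1 lower (9.11% and 11%). The median log2 difference of the 7 members was 0.83 with passage in DPCs and −0.17 in DSCs, beside 0.03 and 0.00 for all genes. Between cell types it was −0.33 at low and 0.83 at high passage, beside 0.00 and −0.01. The genes were chosen with these values known, so the counts are a description.

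**Figure D4:**
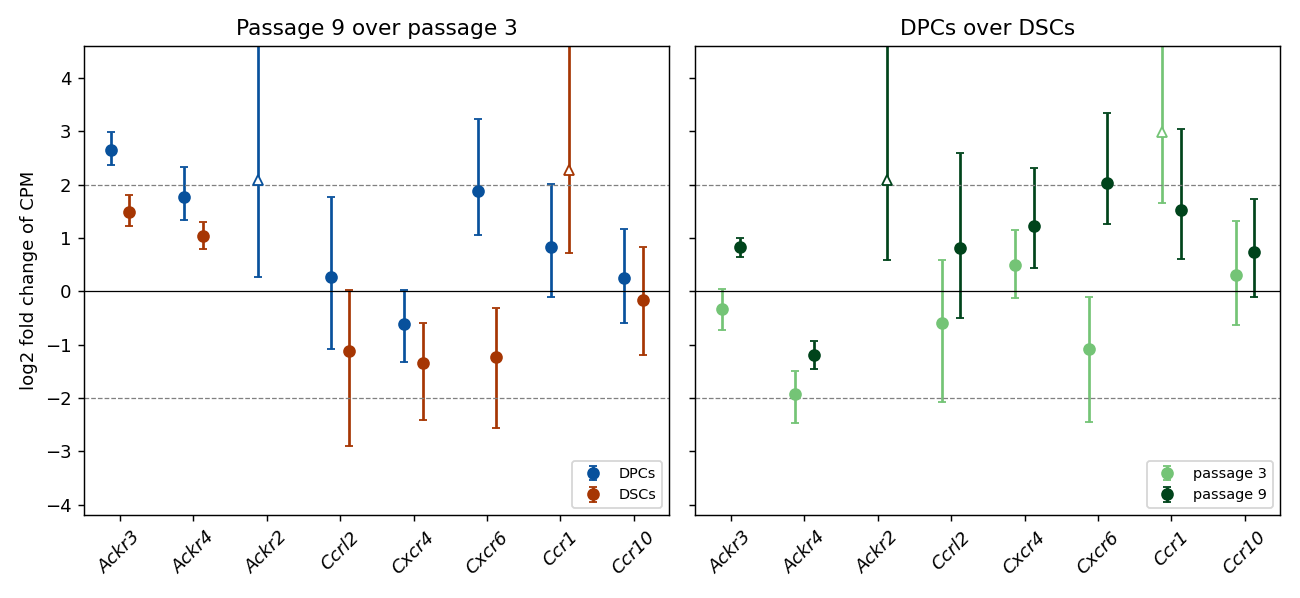
Log2 difference of CPM (y axis) for each member (x axis) in the 4 comparisons, with bars for the 95% interval of the counts (counting error only), open triangles where a library had 0 counts, and dashed lines at 4-fold. Ackr3 in DPCs lies at 2.65 with passage, whereas Cxcr6 lies at 1.89 in DPCs and −1.23 in DSCs.

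Of the 8 genes, 5 (*Ackr4*, *Ccrl2*, *Ackr2*, *Cxcr6* and *Ccr1*) lie on chromosome 9 within 19.9 Mb. Their passage differences did not share a direction in DSCs, where *Ackr4* was at 1.04 and *Cxcr6* at −1.23 on the log2 scale. *Ackr3* and *Cxcr4*, both on chromosome 1, had opposite signs in both cell types.

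The ligands of these receptors were a list of 24 genes, of which 16 passed the count filter. With passage in DPCs, 0 were past 4-fold higher and 1 lower, beside 5.58% and 4.36% of all genes. In DSCs 1 was higher and 0 lower, beside 2.67% and 1.16%. Their median log2 difference was 0.32 in DPCs and 0.23 in DSCs. *Cxcl12*, the ligand of *Cxcr4* and *Ackr3*, had 1284 and 1579 counts in low- and high-passage DPCs and 5695 and 10461 in DSCs. It was 4.30-fold lower in DPCs than in DSCs at low passage and 5.22-fold lower at high passage (log2 −2.10 and −2.38), while its passage differences were 0.33 and 0.61. In FPKM, *Cxcl12* stood at 9.63 and 11.7 in DPCs and 38.5 and 57.7 in DSCs, above both receptors in every library. *Cxcl11*, the other chemokine ligand of *Ackr3*, was at 0 in all 4 libraries. *Adm*, encoding adrenomedullin, which ACKR3 also binds, was higher still, at 102 and 150 FPKM in DPCs and 52.8 and 118 in DSCs.

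Of the ligands of *Ackr4*, *Ccl25* was present and the others were at or near 0. *Ccl21a* and *Ccl21b* were at 0 in all libraries and *Ccl19* had 1 count in high-passage DSCs, whereas *Ccl25* had 250 and 344 counts in DPCs and 288 and 303 in DSCs. *Cxcl16*, the ligand of *Cxcr6*, had 127 and 164 counts in DPCs and 200 and 276 in DSCs. Its passage differences of 0.40 (0.06 to 0.75) and 0.20 (−0.07 to 0.47) on the log2 scale had the same sign in both cell types, unlike those of the receptor. Of the ligands of *Ccr10*, *Ccl27a* had 81 to 134 counts, and *Ccl28* had 26 and 100 counts in low- and high-passage DPCs and 25 and 18 in DSCs. *Ccl28* at high passage was higher in DPCs by 2.67 (2.09 to 3.63) on the log2 scale.

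Ligands that *Ccr1* or *Ackr2* can bind held the largest passage differences of the list. *Ccl9* had 2562 and 91 counts in low- and high-passage DPCs, a log2 difference of −4.75, and 1506 and 453 in DSCs, at −1.99. *Ccl8* had 64 and 193 counts in DPCs and 27 and 184 in DSCs, and was past 4-fold with passage in DSCs at 2.42. *Ccl2* and *Ccl7* were abundant, and both were past 4-fold higher in DPCs at each passage, with log2 differences of 2.17 and 2.78 for *Ccl2* and 2.21 and 2.06 for *Ccl7*. *Ccl3* was past 4-fold at high passage at 2.44, on 38 and 7 counts. *Rarres2*, which encodes the chemerin bound by CCRL2, had 19 counts in DPCs and 113 in DSCs at passage 9, a log2 difference of −2.12.

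**Figure D5:**
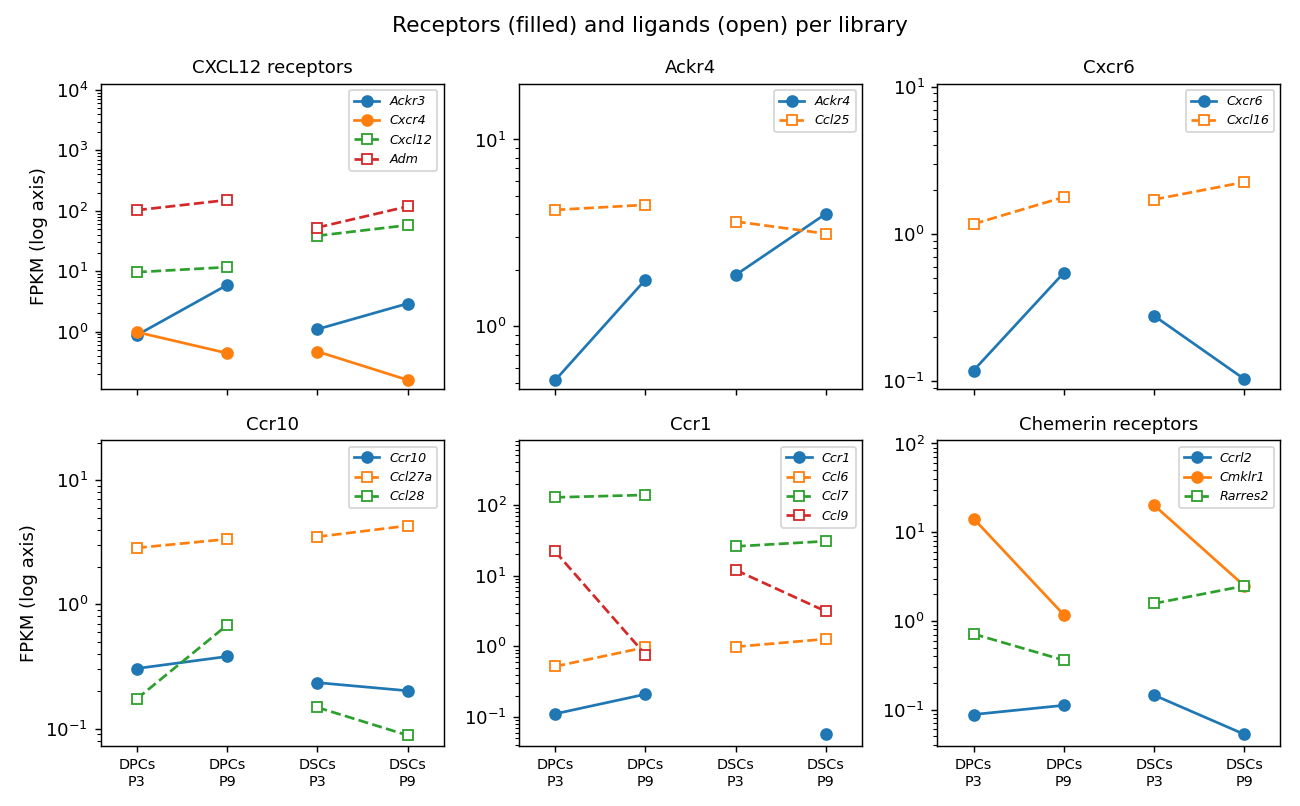
FPKM (log axis) of receptors (filled circles) and of their ligands (open squares) in the 4 libraries, 1 panel per receptor or receptor pair; values of 0 are not drawn. Cxcl12 lies above Ackr3 and Cxcr4 in each library, and Cmklr1 is lower at high passage in both cell types.

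Of the 17 other receptor genes, 5 were at 0 in all 4 libraries and 4 passed the count filter. Of these 4, 1 was past 4-fold higher and 2 lower with passage in DPCs, beside 5.58% and 4.36% of all genes. In DSCs 0 were higher and 2 lower, beside 2.67% and 1.16%. *Cmklr1*, the signalling receptor for chemerin, had 1591 and 119 counts in low- and high-passage DPCs and 2473 and 303 in DSCs. It was 13.0-fold lower with passage in DPCs and 9.81-fold lower in DSCs, with log2 differences of −3.68 (−3.99 to −3.44) and −3.28 (−3.47 to −3.12). At low passage *Cmklr1* stood at 14.2 FPKM in DPCs and 20.1 FPKM in DSCs, above each of the 8 members in any library. The fractalkine receptor gene *Cx3cr1* had 110 and 0 counts in DPCs and 132 and 19 in DSCs. With passage it was 35.8-fold lower in DPCs against 3 counts (interval from 28.6-fold) and 8.35-fold lower in DSCs. *Ccr9*, the conventional receptor for CCL25, had 0 and 35 counts in DPCs and 16 and 18 in DSCs. In DPCs it was 12.0-fold higher with passage against 3 counts (interval from 9.23-fold). *Gpr182*, a scavenging receptor, had 12, 32, 7 and 11 counts, and *Xcr1* had 3, 18, 9 and 6. The atypical receptor gene *Ackr1* had 4 and 7 counts at low passage in DPCs and DSCs and 0 at high passage. *Cxcr3* had 2 and 6 in high-passage DPCs and DSCs, *Ccr2* and *Ccr7* had 2 each in low-passage DPCs, and *Ccr3* and *Ccr6* had 2 each in high-passage DSCs.

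Among 22 genes of receptor signalling, desensitisation and ligand shedding, 20 passed the count filter. With passage in DPCs, 1 was past 4-fold higher and 2 lower, beside 5.58% and 4.36% of all genes. In DSCs the numbers were 0 and 1, beside 2.67% and 1.16%. *Elmo1*, which links G proteins to RAC activation, had 149 and 620 counts in DPCs and 192 and 160 in DSCs. *Rgs4*, a brake on G protein signalling, had 122 and 23 counts in DPCs and 86 and 129 in DSCs, with a log2 difference of −2.28 (−3.08 to −1.72) in DPCs. Its FPKM in DPCs was 1.04 at low and 0.377 at high passage, short of 4-fold. *Vav1*, a guanine nucleotide exchange factor of blood cells, had 25 and 2 counts in DPCs, at −2.77 (−6.73 to −1.60), and 26 and 27 in DSCs. *Grk3*, a receptor kinase, had 15 and 7 counts in DPCs and 30 and 0 in DSCs. In DSCs it was 12.0-fold lower with passage against 3 counts (interval from 9.18-fold). Between cell types at high passage, 3 genes were past 4-fold higher in DPCs and 3 lower, beside 2.5% and 3.91% of all genes. *Arrb1*, encoding the β-arrestin 1 that desensitises these receptors, had 232 counts in DPCs and 1523 in DSCs at passage 9, a log2 difference of −2.36. By FPKM it was −1.66, short of 4-fold. *Rgs16* had 16522 and 4252 counts in the same libraries, at 2.30. The median passage differences of the 20 genes were −0.25 in DPCs and −0.18 in DSCs.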

How the data were processed

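RNA of cultured mouse DPCs and DSCs at passages 3 and 9 was sequenced, with 1 library in each of 4 groups taken from the sample titles. The authors deposited raw counts per gene, which are not normalized, and FPKM values, which they normalized for transcript length and depth. The submitters' processing notes list Bowtie 0.12.2, mm8 and mm9 without a role. The gene positions are those of GRCm38 instead, because 51633 of 51826 gene IDs were found in GENCODE M21 (193 were not) and 94.1% of these had an identical position. The counting program and its use of strand were not given in the sources used here. The labels name a TruSeq kit and the study's methods another kit.

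Counts were scaled by TMM in edgeR 4.0.16 (R 4.3.3) over 16734 genes with a mean count of at least 10. Each difference is between log2 CPM values to which a prior count of 2 was added. Calls used the 4-fold threshold of the study, and a 2-fold threshold chosen after seeing the data. With 1 library per group, no p-value was computed. Log2 intervals are exact Clopper-Pearson intervals of a library's share of the counts of a pair of libraries, and intervals for a difference of passage differences or for a ratio of genes are exact conditional odds ratio intervals (SciPy 1.17.1), all at 95% and for counting error only. A fold against a count of 0 uses a floor of 3 counts in that library. It leaves out the counting error of the other library, so the lower end of the interval is given beside it. Overlaps came from GENCODE M21 and promoters from RefSeq (7 of 8 genes matched). The calculations were tested on simulated data.

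The members, lists and tests were chosen with earlier results of these data known. Named are all 8 members, other receptors with any count, ligands set beside a member, overlapping genes and some of the markers. Ligand and signalling genes past 4-fold in a comparison with at least 10 counts were named too. So were the 2 nearest genes of each member with a mean count of at least 50. *Adam17* and *Thy1* were named because of their opposite passage differences. Other scalings, prior counts, filters, halved counts and FPKM were the alternatives. Values of some listed genes are not reported here.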

Additional observations from a re-analysis of the deposited data

Results flagged for a closer look

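Of the members and listed genes that passed the count filter, 5 had passage differences of opposite sign in DPCs and DSCs with intervals off 0 in both. How many of all genes meet this rule was not counted, so the number has no background beside it. Intervals narrow with depth, so that genes with many counts pass on small differences. These differences rest on 1 library per group, so they were not tested against the spread between cultures. For *Cxcr6* the log2 passage difference in DPCs minus that in DSCs was 3.11 (1.88 to 5.07). For *Elmo1* it was 2.60 (2.21 to 3.03), from a difference of 2.08 in DPCs and −0.52 in DSCs. For *Adam17*, which encodes a sheddase of transmembrane chemokines, it was −0.93 (−1.06 to −0.80), with 2341 and 1854 counts in low- and high-passage DPCs and 1503 and 2799 in DSCs. The marker genes *Ncam1* and *Thy1* differed by −1.23 (−1.32 to −1.14) and −1.71 (−1.77 to −1.65), with log2 passage differences of −1.09 and −1.48 in DPCs and of 0.14 and 0.23 in DSCs.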

How the results depend on the processing

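The numbers of members past 4-fold (1 in each comparison) moved with the settings. With the 2-fold threshold they were 3 and 6 with passage in DPCs and DSCs, and 3 and 4 between cell types at low and high passage. With passage in DPCs the number was 2 with a prior count of 0.5 or without a filter, and 0 by FPKM with a pseudocount of 1. In the other 3 comparisons it was 0 with a prior count of 10, with a mean count of at least 100 and by FPKM with a pseudocount of 0.1 or 1, and 0 with halved counts for passage in DSCs and for high passage between cell types. At high passage it was 2 without a filter. The gene gained with a prior count of 0.5 was *Cxcr6* (2.02), and *Ackr3* in DPCs, at 2.65 by CPM, was at 1.88 by FPKM with a pseudocount of 1. Scaling by total counts, upper quartile or DESeq2 size factors left each at 1. Of 296 recomputed log2 differences of the members, 277 moved by less than their counting interval, 19 by more and 0 changed sign. The 6 members above 3 counts in all libraries were 6 above 6 counts and 4 above 10.

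Leaving out a library was not possible with 1 per group. No paired analysis was possible because the labels give no replicate numbers that groups share. Depth limits *Ackr2*, *Ccrl2*, *Ccr1* and *Ccr10*, whose counts were at most 26.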
